A study of Mus musculus with 4 samples.

Results

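The genes described here are 40 genes of ribosome biogenesis and cell growth, out of 32285 genes counted in each of 4 thymocyte libraries. They were taken by symbol from a list of nucleolar and growth genes that was chosen with earlier results of these data known. All 40 symbols were found in the files and passed the filter on low counts in each of the 6 stages tested. Thymocytes are the developing T cells of the thymus. The control libraries (n = 2) came from Tox4;F/F mice, in which both alleles of Tox4 carry loxP sites around exons 4 to 6. The cKO libraries (n = 2) came from Tox4;F/F;Lck+ mice, which have the same floxed alleles and a Cre recombinase under the proximal promoter of the T cell kinase gene Lck, so that deletion starts in T cell precursors and not in other thymic cells. The mice were gender-matched littermates, 6 to 8 weeks old, and were not treated. The question is how the level of these genes runs through T cell development and whether it differs after Tox4 loss.

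Ribosomes are built in the nucleolus. RNA polymerase I transcribes the long precursor of the ribosomal RNAs, small nucleolar ribonucleoproteins (snoRNPs) modify it, and a large set of helicases, GTPases and assembly factors cut it and fold it into the large and the small ribosomal subunit. Cells that grow and divide need many ribosomes, and genes of this pathway are known targets of the transcription factor Myc, which binds the E-box CACGTG. In the thymus, cells grow and divide at the late double-negative (DN) stage and as double-positive blasts (DPbla), then become small resting cells that rearrange the TCRα locus (DPre), and are selected (DPsel) to become CD4 or CD8 single-positive cells (CD4SP, CD8SP).

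Each droplet was read from the 3′ end of its transcripts, and each molecule counted once by its unique molecular identifier (UMI). The libraries held 11790 to 17347 cells and 42716798 to 62007453 UMIs, and 5667 to 12117 cells per library were kept. More cells exceeded the 10% mitochondrial limit in control 1 and cKO 1 (48.3% and 46.1%) than in control 2 and cKO 2 (20.6% and 23.1%). Clusters were named from markers, with the 40 genes left out of the clustering, and 28908 of 33553 kept cells fell into the 6 stages. The defining markers had their highest mean in their own stage for Il2ra in DN, Mki67 in DPbla, Rag1 in DPre, Cd69 in DPsel, Zbtb7b in CD4SP and Runx3 in CD8SP. Of the other markers, Dtx1 of the DN list was highest in CD8SP, Cd40lg of the CD4SP list in DPsel, and Ccr7, Klf2 and S1pr1, which both SP lists hold, in CD4SP. The stage names are thus rebuilt from markers and may differ from those of the study. Any pair of libraries shared 0.305% to 0.555% of the cell barcodes of the smaller library. A cluster of 1691 droplets with a median of 840 UMIs, led by the antibody gene Igkc and by cell cycle genes, was kept out of DPbla by a rule set after the clusters were seen. It held 3.09% and 3.28% of the control cells and 7.35% and 5.79% of the cKO cells. Tox4 itself was at 50.4 and 53.3 UMIs per 1000000 UMIs of the class (CPM) in control DPbla and 43.4 and 50.2 CPM in cKO DPbla, a log2 fold change of -0.10 (SE 0.12, adjusted p = 0.777, edgeR quasi-likelihood test). In DPre it was at 78.2 and 82.5 CPM in control and 64.4 and 65.4 CPM in cKO (-0.27, SE 0.11, adjusted p = 0.246, same test). Both cKO libraries lay below both control libraries in DPbla, DPre, DPsel and CD4SP. In DN and CD8SP they overlapped, and Tox4 was called in no stage. Transcripts of the deleted allele keep the 3′ end that was read, so these values do not check the deletion.

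The 40 genes lie on 18 chromosomes of GRCm38, and 8 of them are on chromosome 11, where 8.38% of the 10020 protein-coding genes tested in DPbla lie. Small nucleolar RNA genes, which encode the guide RNAs of snoRNPs, lie inside 9 of the 40 genes on the same strand (22.5%), against 202 of the 10020 genes (2.02%, GENCODE M21). These hosts are Nop56, Nop58, Dkc1, Ncl, Gnl3, Wdr43, Tsr1, Odc1 and Eif4a1, and together they hold 25 such genes. Exons of 16 genes overlap exons of a gene on the other strand, which the stranded 3′ reads keep apart, and none overlap on the same strand.

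Promoters from RefSeq (GRCm38.p6, 250 bases before to 50 after each start) were found for 34 of the 40 genes. Fbl, Npm1, Rrs1, Bop1, Rrp12 and Srm had no entry. The E-box CACGTG, a palindrome, was in the promoters of 10 of the 34 genes (29.4%), in 8.09% of all 27025 genes of the table and in 12.3% of the 8360 genes tested in DPbla that it holds. The 10 genes are Nop2, Pes1, Utp20, Wdr43, Pno1, Tsr1, Ltv1, Mybbp1a, Eif4a1 and Eif5a. The promoters of Pno1, Mybbp1a and Wdr43 are shown because these 3 genes hold the E-box and were called in DPbla (below), with the E-box in capitals. The start site is base 251 of each line, and the E-box begins 37, 40 and 17 bases after it in Pno1, Mybbp1a and Wdr43.
Pno1, chr11:17211540-17211839, minus strand: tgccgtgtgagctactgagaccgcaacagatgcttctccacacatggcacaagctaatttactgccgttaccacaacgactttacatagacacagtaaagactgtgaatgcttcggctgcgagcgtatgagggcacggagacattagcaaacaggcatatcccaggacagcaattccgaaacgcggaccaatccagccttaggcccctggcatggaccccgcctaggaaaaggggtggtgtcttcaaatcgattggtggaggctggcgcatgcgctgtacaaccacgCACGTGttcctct
Mybbp1a, chr11:72441077-72441376, plus strand: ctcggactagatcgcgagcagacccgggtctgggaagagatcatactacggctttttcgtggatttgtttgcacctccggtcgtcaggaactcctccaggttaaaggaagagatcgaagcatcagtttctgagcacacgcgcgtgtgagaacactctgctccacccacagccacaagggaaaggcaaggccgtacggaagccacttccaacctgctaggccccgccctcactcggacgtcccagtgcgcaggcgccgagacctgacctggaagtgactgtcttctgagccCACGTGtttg
Wdr43, chr17:71615965-71616264, plus strand: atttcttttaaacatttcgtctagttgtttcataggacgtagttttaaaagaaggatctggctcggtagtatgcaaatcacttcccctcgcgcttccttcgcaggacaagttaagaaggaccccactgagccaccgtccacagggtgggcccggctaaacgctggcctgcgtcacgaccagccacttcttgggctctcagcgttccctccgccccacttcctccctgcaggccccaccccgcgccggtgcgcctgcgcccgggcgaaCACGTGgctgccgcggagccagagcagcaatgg
Of the 10 genes with the E-box 3 were called in DPbla, of the 24 without it 10 were, and of the 6 with no entry 4 were, a count that was not tested. Searched on both strands in the same way, the NRF1 motif was in 26.5% of the 34 promoters and 13.2% of those of genes tested in DPbla. The ETS motif CCGGAAG was in 26.5% and 23.2%, the E-box variant CACGCG in 32.4% and 21.3%, the YY1 motif AAGATGGC in 2.94% and 6.08%, and the TATA box TATAAA in 5.88% and 8.03%. Matches of different motifs overlapped in 2 promoters (Ddx10 and Odc1, the NRF1 motif and CACGCG).

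Summed over the 40 genes, the level was highest in DN cells and lowest in DPre cells among the 6 stages, after the filter on UMI totals. The unnamed low-UMI cluster led by Igkc and cell cycle genes lay above DN in each library, at 9236, 8976, 8408 and 9599 CPM. The sum was 6147 and 6790 CPM in control DN cells and 7469 and 7543 CPM in cKO DN cells. In DPre cells it was 3572, 3671, 3965 and 3939 CPM (control 1, control 2, cKO 1, cKO 2, the order used throughout), the lowest stage in each library, though CD4SP of cKO 2 (3959 CPM) was almost as low. The mean log2 ratio to DPre within a library was 0.88 ± 0.07 in DN (SD, n = 4), 0.57 ± 0.11 in DPbla, 0.49 ± 0.09 in DPsel, 0.55 ± 0.07 in CD8SP and 0.15 ± 0.12 in CD4SP. CD8SP was a single cluster with more cell cycle RNA than CD4SP. Its DPbla markers summed to 839.8, 1106, 1315 and 1356 CPM, against 178.6, 151, 232.6 and 212.7 CPM in CD4SP. The part of this in the difference between CD8SP and CD4SP was not tested. DPbla, CD8SP and DPsel did not differ beyond these spreads over the 4 libraries, but their order turned with the genotype. DPbla was below DPsel and CD8SP in both control libraries and above them in both cKO libraries, at 4919, 5133, 6305 and 6248 CPM against 5332, 5244, 5708 and 5049 CPM in DPsel and 5260, 5733, 5539 and 5587 CPM in CD8SP. The order at the top turned when the cells of extreme UMI totals were added, with all other cells keeping their stage name and each added cell taking the commonest name in its cluster: DPbla was then highest, at 1.20 ± 0.06, above DN at 1.03 ± 0.06, CD8SP at 0.61 ± 0.07 and DPsel at 0.51 ± 0.10. With all cells clustered and named anew, when a mitosis cluster of 682 cells was named DPre, DPbla was at 1.22 ± 0.06 and DN at 0.97 ± 0.11. Each sum rests on at least 4082 UMIs, and the widest exact 95% interval for counting error reached 3.1% above its level. Cells differ in their UMI totals, and per cell the sums were 56.7 to 72.3 UMIs in DN, 45.5 to 62.1 in DPbla, 38.3 to 52.3 in CD8SP, 17.2 to 27.1 in CD4SP, 16.6 to 25.8 in DPsel and 9.3 to 11.9 in DPre. On that scale CD4SP and DPsel cells were alike, and DPre cells stayed lowest in every library.

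**Figure D1:**
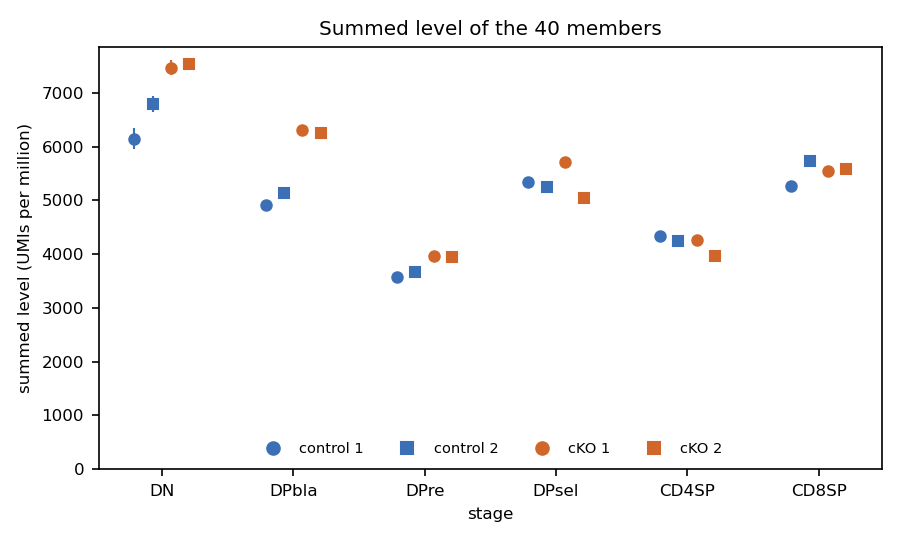
Summed level of the 40 genes in CPM (vertical axis) in each stage and library, with exact 95% intervals for counting error as bars, many smaller than the points. After the filter on UMI totals the DN values of 6147 to 7543 are the highest (with extreme cells kept, DPbla lies above DN) and the DPre values of 3572 to 3965 the lowest, and the cKO points lie above the control points in DN, DPbla and DPre.

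Most of the single genes followed the sum. Of the 40 genes, 26 had their highest mean level in DN, 7 in DPsel, 3 in CD8SP, 2 in DPbla (Odc1 and Eif5a), 1 in CD4SP (Polr1a) and 1 in DPre. The lowest mean was in DPre for 31 genes, in CD4SP for 6 (Nop56, Ncl, Pes1, Ddx18, Ebna1bp2 and Eif4a1), in DPbla for 2 (Ddx10 and Nob1) and in CD8SP for 1. Both rankings were made after the filter on UMI totals. They were not remade with cells of extreme totals kept, where the summed level of DPbla lay above that of DN. Among the 38 genes with at least 20 UMIs per library in both stages, the median log2 ratio of DPbla to DPre was 0.56, and 34 were above 0. Over all 8911 genes with that many UMIs the median was -0.27 and 35% were above 0.

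The largest ratios of DPbla to DPre were those of the polyamine genes Srm and Odc1 and of Gar1. Srm, which encodes spermidine synthase, had a log2 ratio of 1.45 to 1.58 over the 4 libraries, Odc1, the rate-limiting enzyme of polyamine synthesis, a mean of 1.47 ± 0.17 (SD, n = 4), and Gar1, a core protein of box H/ACA snoRNPs, 1.38 ± 0.10. Ratios of this size held in all 4 libraries, the lowest being 1.29 (Gar1). At the other end stood Wdr12, Ddx10 and Nob1, at -1.40 ± 0.07, -0.36 ± 0.24 and -0.27 ± 0.06.

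Wdr12 ran against the other genes. It encodes a WD-repeat protein of the PeBoW complex of large subunit assembly, with Pes1 and Bop1 as its partners. Its level was 267, 300, 315 and 338 CPM in DPre, against 105, 108, 125 and 125 CPM in DPbla and 40.3, 43.1, 45.1 and 45.7 CPM in CD8SP. The groups of libraries of these stages did not overlap, and Wdr12 was the only 1 of the 40 genes with its highest mean in DPre. Of its partners, Bop1 was lowest in DPre, with a mean of 20.3 CPM there, 22.5 CPM in DPbla and 33.8 CPM in CD8SP. Pes1 had 31.6 CPM in DPre, 28.2 CPM in DPbla (lower in each library, log2 ratio -0.36 to -0.07) and 36.3 CPM in CD8SP. Wdr12 (chromosome 1, 60069785 to 60098645, minus strand) overlaps exons of Carf on the other strand.

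**Figure D2:**
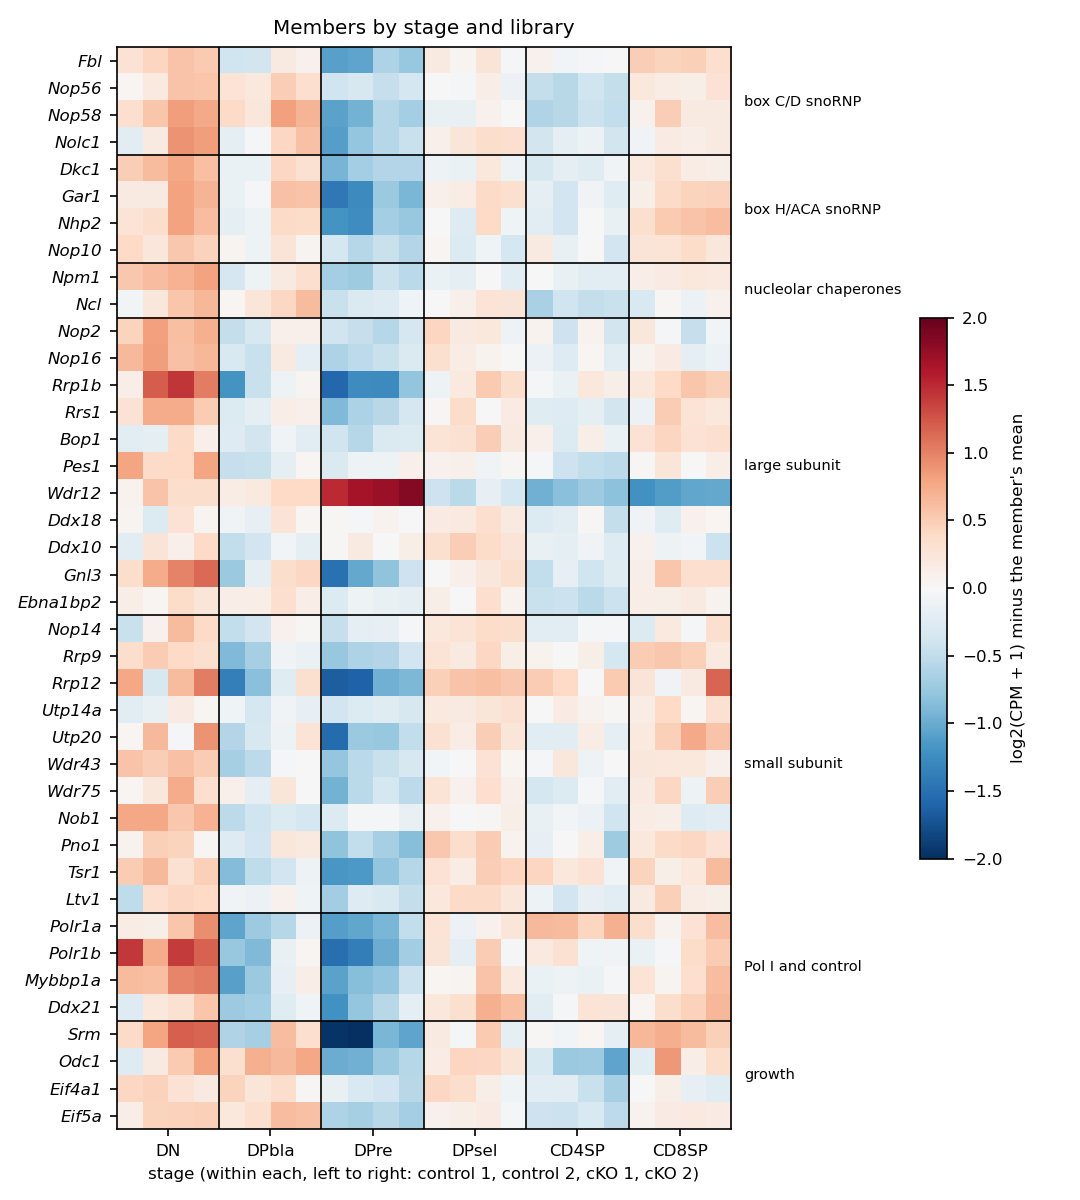
Level of each of the 40 genes (rows, grouped by role) in the 6 stages and 4 libraries (columns), as log2(CPM + 1) minus the mean of the gene over the 24 columns. Red is above and blue below that mean, and colours stop at 2 either way. The DPre columns are blue for most genes and dark red for Wdr12, and within DPbla and DPre the cKO columns are redder than the control columns for most genes.

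Within DPbla and DPsel the level followed the clusters, given here as a description since the cells were grouped by their expression. The 2 DPbla clusters led by genes of DNA replication had the highest sums, 6634, 6827, 8625 and 8361 CPM in the cluster led by Hells, Dtl and Cdc6 and 6084, 6295, 7301 and 6968 CPM in that led by Pclaf, Hist1h1b and Rrm2. The clusters led by the mitosis genes Mki67, Top2a and Prc1 and by Cenpf, Cdc20 and Ube2c had 3777 to 4418 and 4085 to 4491 CPM. Among the DPsel clusters, the 1 led by Xcl1, Tnfrsf9 and Nr4a1, genes that rise after a strong TCR signal, had 6895, 7152, 8660 and 6978 CPM. The clusters led by Cd5 and by Itm2a with Il7r had 4377 to 4535 and 4962 to 5368 CPM. The cells with TCR response genes thus had more of these transcripts, relative to their total, than the dividing cells of the mitosis clusters in every library.

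**Figure D3:**
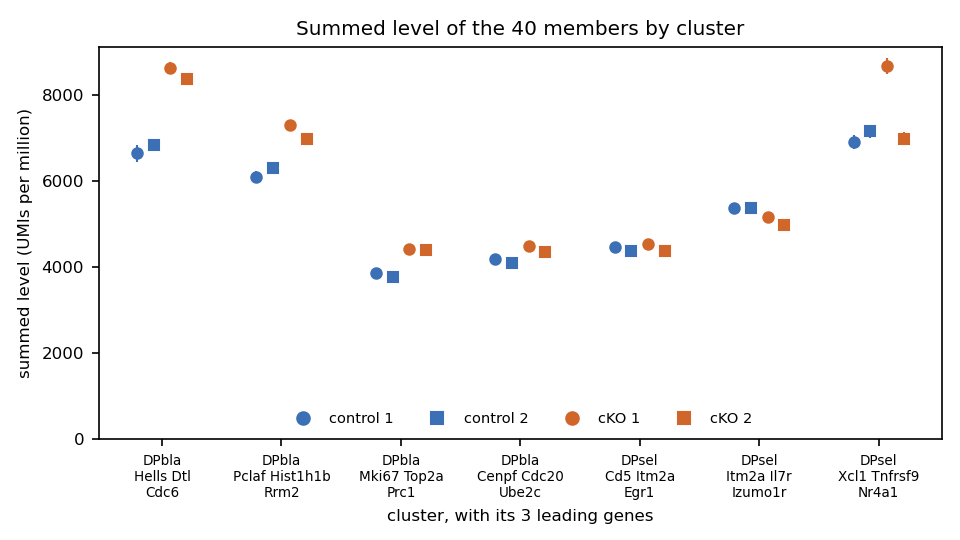
Summed level of the 40 genes (CPM, vertical axis) in the 4 DPbla and 3 DPsel clusters, named by their 3 leading genes, with 1 point per library and exact 95% counting intervals. The DPbla clusters led by replication genes (6084 to 8625) and the DPsel cluster led by Xcl1 (6895 to 8660) lie above the others (3777 to 5368).

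In DPbla these genes were higher in the cKO libraries. The sum was 4919 and 5133 CPM in control and 6305 and 6248 CPM in cKO libraries, a mean rise of 24.9% (5026 ± 151 against 6277 ± 40.1 CPM, SD, n = 2 each). With 2 against 2 libraries an exact permutation test cannot go below p = 0.333, and the list was chosen with earlier results of these data known, so the sum was not tested. Because of that choice, the shares of all genes given beside the counts are a description and not a test of the list. Gene by gene, with edgeR's quasi-likelihood test adjusted over the 10773 genes tested in DPbla, 17 of the 40 genes were called higher in cKO and 0 lower (the 40 genes had 31 unadjusted p-values under 0.05), where 1.82% of all genes tested were called higher. The median log2 fold change of the 40 genes was 0.52 and 39 were above 0, against a median of 0.00 over all genes tested. In 34 of the 40 genes both cKO libraries lay above both control libraries, against 18.2% of all genes tested, and in 0 genes both lay below, against 27.9%.

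In the snoRNPs, 6 of 8 genes rose. The box C/D snoRNPs guide 2′-O-methylation of ribosomal RNA. Their methyltransferase Fbl was at 108, 111, 163 and 152 CPM, with a log2 fold change of 0.57 (SE 0.11, adjusted p = 0.00483). The core protein Nop58 was at 145, 130, 196 and 177 CPM (0.49, SE 0.11, adjusted p = 0.0137). Nolc1, a chaperone that brings snoRNPs into the nucleolus, was at 61.4, 68.1, 93.2 and 105 CPM (0.66, SE 0.12, adjusted p = 0.00321). For all 3 genes the cKO libraries exceeded the control libraries without overlap. Nop56, the partner of Nop58, had 0.22 (SE 0.11, adjusted p = 0.335). The box H/ACA snoRNPs guide pseudouridylation. Their pseudouridine synthase Dkc1 was at 76.6, 77.2, 113 and 104 CPM (0.54, SE 0.11, adjusted p = 0.00891). Gar1 was at 49.6, 53.5, 81.9 and 80.9 CPM (0.70, SE 0.12, adjusted p = 0.00184) and Nhp2 at 88.7, 93.7, 131 and 129 CPM (0.55, SE 0.11, adjusted p = 0.0068), again without overlap. The smallest subunit gene, Nop10, the most abundant of the 4, was at 283, 256, 329 and 284 CPM (0.23, SE 0.11, adjusted p = 0.306), with the cKO libraries only just above.

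Npm1 and Ncl encode the abundant nucleolar chaperones nucleophosmin and nucleolin. Npm1 made up 16.7% to 20.9% of the summed UMIs in DPbla and was at 820, 964, 1181 and 1305 CPM (0.52, SE 0.12, adjusted p = 0.0161). Ncl was at 622, 718, 809 and 938 CPM and just missed the threshold (0.42, SE 0.12, adjusted p = 0.0518). Both were higher in the 2 cKO libraries.

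Of the 11 genes of large subunit assembly, 11 had a fold change above 0 and 2 rose. Gnl3, which encodes the GTPase nucleostemin, was at 43.1, 64.1, 93.6 and 97.7 CPM (0.86, SE 0.14, adjusted p = 0.00181). Rrp1b was at 8.44, 14.9, 19.2 and 21.5 CPM (0.81, SE 0.21, adjusted p = 0.0353), and over 19 alternatives it ranged from 0.41 to 1.36 and kept its call in 7. Both control libraries were below both cKO libraries, though control 1 was the lower of the control pair by more than the cKO pair differed. The other 9 ranged from 0.15 (Ebna1bp2) to 0.56 (Nop2). Of the 11 genes of small subunit assembly, again 11 were above 0, and 5 rose. The helper of early assembly Nop14 was at 26, 28.3, 39.6 and 37.6 CPM (0.54, SE 0.14, adjusted p = 0.0302), and Rrp9, a protein of the U3 snoRNP, at 14.1, 16.6, 25.7 and 24.4 CPM (0.73, SE 0.16, adjusted p = 0.0137). Wdr43, a subunit of the small subunit processome, was at 49.2, 54.2, 76.9 and 77.5 CPM (0.62, SE 0.12, adjusted p = 0.00516). The late factor Pno1 was at 17.7, 16.2, 25.4 and 24.6 CPM (0.61, SE 0.16, adjusted p = 0.0335). Rrp12, an export factor of pre-ribosomes, had the largest fold change and the fewest molecules, with 6, 15, 33 and 74 UMIs (1.27, 2.29, 3.96 and 6.32 CPM, 1.54, SE 0.38, adjusted p = 0.0279). Its fold change ranged from 0.32 to 2.12 over 19 alternatives, and its call held in 7 of them. The 5 genes did not overlap between the groups.

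The 4 genes of RNA polymerase I and its control had fold changes from 0.60 to 0.96. Mybbp1a, a nucleolar Myb-binding protein that regulates rRNA synthesis, was at 23.6, 30.2, 45.5 and 56.2 CPM (0.95, SE 0.15, adjusted p = 0.00117), and the RNA helicase gene Ddx21 at 60.2, 62.8, 85.2 and 95 CPM (0.60, SE 0.12, adjusted p = 0.00623). Both rose, with no overlap. Polr1b, the second largest subunit of RNA polymerase I, was at 4.22, 3.81, 6.96 and 8.03 CPM and missed the threshold (0.96, SE 0.27, adjusted p = 0.0559). Of the growth genes, Srm (ENSMUSG00000006442, chromosome 4, 148591503 to 148594993, plus strand) had the smallest p of the 40, from 23.9 and 23 to 56.9 and 46.7 CPM (1.18, SE 0.14, adjusted p = 5.47e-05). At a mitochondrial limit of 5% its fold change was 0.96 (adjusted p = 0.00924) with cell names held and 0.58 (adjusted p = 0.108) with cells clustered anew. With cells of extreme UMI totals kept it was 0.29 (adjusted p = 0.455) and 0.30 (adjusted p = 0.417), and the 19 alternatives ranged from 0.29 to 1.32. Odc1, in the same pathway, had 0.22 (SE 0.13, adjusted p = 0.479) and overlapped between the groups. The translation factor genes Eif5a and Eif4a1 had 0.37 (SE 0.11, adjusted p = 0.0727) and -0.11 (SE 0.12, adjusted p = 0.751). Eif4a1 was the 1 gene below 0, at 914, 797, 855 and 682 CPM. Eif5a carries hypusine, a modification made from the spermidine that Srm produces.

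**Figure D4:**
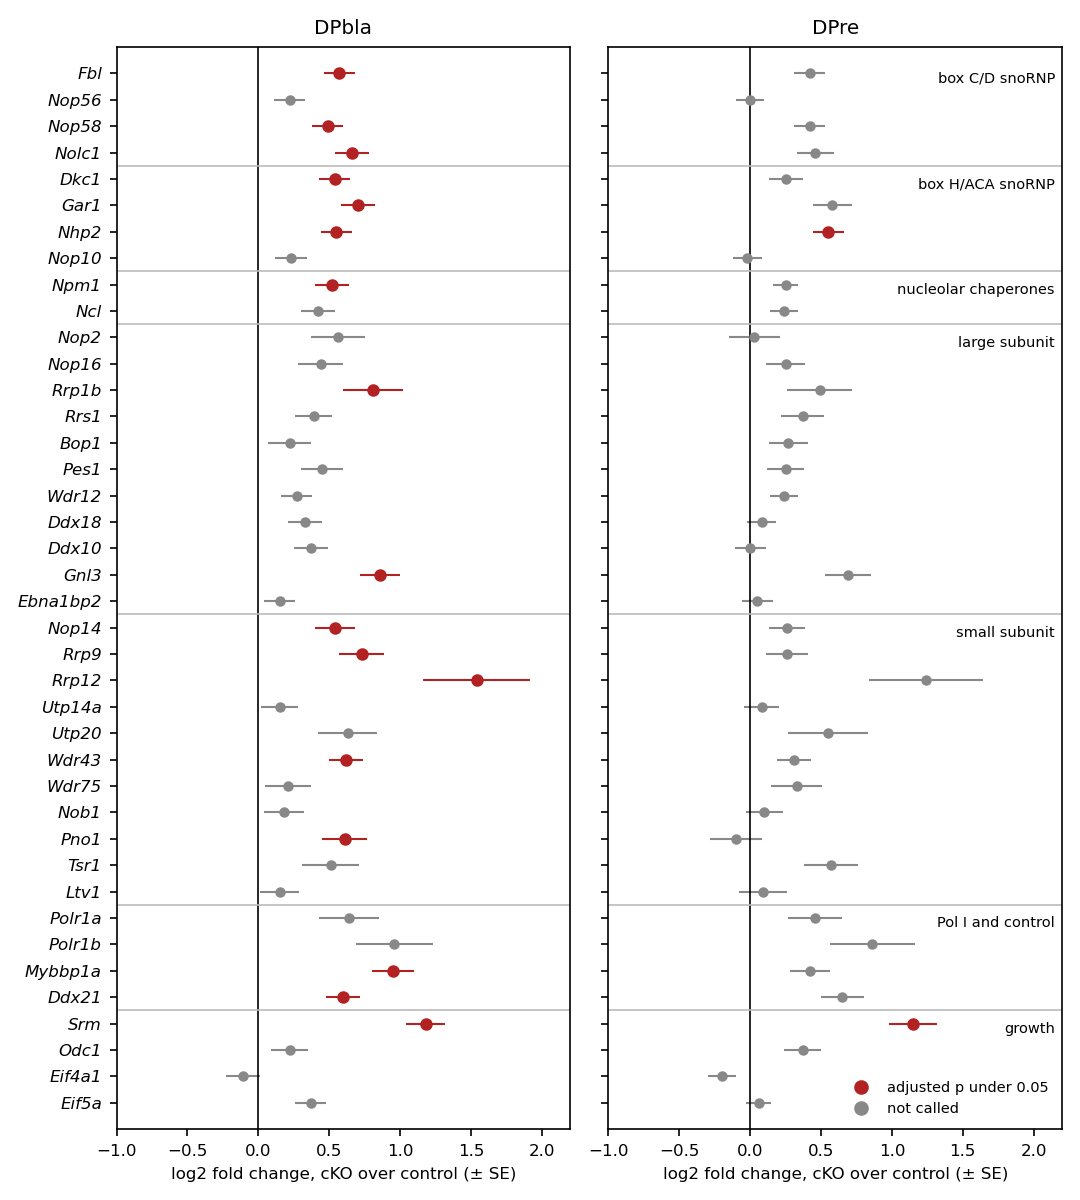
Log2 fold change of cKO over control (horizontal axis, ± SE) for each of the 40 genes, grouped by role, in DPbla (left) and DPre (right). Red points passed an adjusted p of 0.05, 17 in DPbla and 2 in DPre, and all red points lie to the right of 0.

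These counts depended on which cells and libraries were used. The share of all genes called was counted only for the full fits and the fits within clusters, not for fits with other cells or libraries. This holds for the other stages as well. Without 1 library, 6 to 19 of the 40 genes were called in DPbla (6 without cKO 2, 7 without control 1, 10 without cKO 1, 19 without control 2), and with a mitochondrial limit of 5% and cell names held 6 were (Gar1, Gnl3, Mybbp1a, Nolc1, Srm and Wdr43), with 39 genes still above 0 and a median of 0.49. With the cells under that limit clustered anew only Mybbp1a was called, with a median of 0.40, but there a cluster of 1131 low-UMI droplets was named DPbla and a mitosis cluster of 298 cells DPre. Of the 17 genes, Gar1, Gnl3 and Mybbp1a kept their call in 16 of 19 alternatives, and Pno1 in the fewest, 6. Other measures moved with the groups in DPbla, and their part in the result was not tested: ribosomal protein genes took 16.9% and 19% of the control UMIs and 21.3% and 23% of the cKO UMIs, and the cluster led by Hells made up 15.6% and 21.5% of control and 23.3% and 27.2% of cKO cells. The cluster led by Pclaf also made up more of the cKO cells (21.5% and 22.4% against 26.1% and 24.6%). Those led by Mki67 (30.1% and 31.4% against 27.3% and 26.3%) and by Cenpf (32.8% and 24.7% against 23.3% and 21.9%) made up less. The 7 DN markers summed to 22.6 and 20.4 CPM in control and 36.8 and 34.3 CPM in cKO, against 2347 to 2816 CPM in DN cells, and mitochondrial genes took 5.24% and 5.67% of control and 4.76% and 5.08% of cKO UMIs. Sums that were lower in both cKO libraries were those of the 22 proliferation genes of the study's list (17313 and 16963 against 16033 and 14926 CPM), the 8 DPbla markers (5681 and 5614 against 5505 and 5285 CPM), the DPre markers (2221 and 1860 against 1831 and 1806 CPM), the DPsel markers (194 and 175.4 against 163.8 and 158.9 CPM) and the γδ T cell markers (220.6 and 207.1 against 170 and 182 CPM). So were those of mononuclear phagocyte markers (299.3 and 255.2 against 242.3 and 251.7 CPM) and of the Myc family (590.8 and 547 against 523.4 and 543.1 CPM). The erythroid markers (11.6 and 8.07 against 14.4 and 15.3 CPM) and 2 nuclear-retained RNAs (9941 and 9396 against 10041 and 10265 CPM) were higher. Cells drawn so that the 4 clusters had equal shares in every library gave 10 calls and a median of 0.38. The fits within clusters gave 10 calls of 40 in the cluster led by Hells (1.42% of all genes tested were called higher there), 2 of 37 in that led by Mki67 (0.36%), 0 of 40 in that led by Pclaf (0.0561%, 14 unadjusted p-values under 0.05) and 0 of 37 in that led by Cenpf (0.314%, 8 unadjusted), by edgeR, the only tool run on them. The medians were 0.44, 0.36, 0.27 and 0.24. The 10 calls in the Hells cluster included Ncl (0.47, SE 0.10, adjusted p = 0.00677), Ddx10 (0.81, SE 0.21, adjusted p = 0.0376) and Eif5a, which were not called in the whole stage.

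The result also moved with the range of UMI totals of the cells. The study's filter on UMI totals left out the top and bottom 2.5%, and it was set here for each library, which the study does not state. It removed 32.5% and 24.9% of control and 28.1% and 21.3% of cKO DPbla cells, counted with cell names held. With these cells added and no other cell renamed, the 4 libraries differed less: the sum differed by 0.12 (log2) in place of 0.32, the median log2 fold change was 0.25 with 39 genes above 0, and Ddx21 was the only 1 of the 40 genes called. With all cells clustered anew the sum differed by 0.12 and the median was 0.25 as well, and Ddx21 was again the only call. From 8000 UMIs upwards the sum rose with the UMIs of a cell. Between 15000 and 20000 UMIs it was 6925 and 7062 CPM in control and 8423 and 9965 CPM in cKO cells, and between 20000 and 30000 UMIs it was 9284, 9305, 11102 and 11840 CPM. Above 30000 UMIs the libraries had 13801, 13304, 13640 and 13355 CPM and overlapped. Such cells made up 11.1% and 8.02% of control and 9.35% and 3.48% of cKO blasts. Both cKO libraries lay above both control libraries in 6 of 8 bands of UMI totals. With the extreme cells kept, all cells clustered anew and the bands drawn at equal shares, the sum differed by 0.18, the median was 0.32, and Ddx18, Ddx21, Gar1, Gnl3 and Wdr43 were called.

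**Figure D5:**
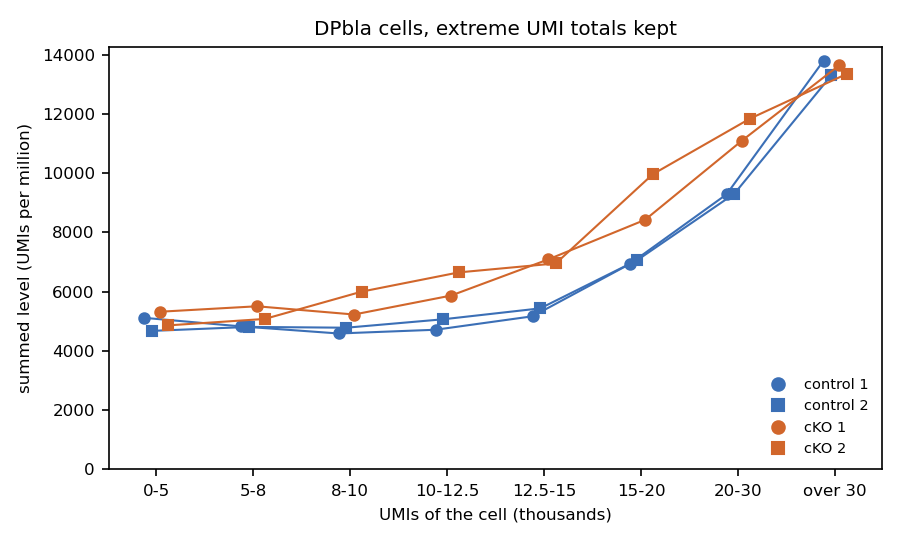
Summed level of the 40 genes (CPM, vertical axis) in DPbla cells of 8 bands of UMI totals (horizontal axis), with cells of extreme totals added, cell names held and 1 line per library. The cKO lines lie above the control lines from 5000 to 30000 UMIs, and the 4 libraries meet above 30000 at 13304 to 13801.

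In DPre the cKO libraries were again higher. The sum was 9.12% higher in cKO (3622 ± 70 against 3952 ± 18.2 CPM, SD, n = 2 each), a log2 difference of 0.13 against 0.32 in DPbla, but 0.13 and 0.12 with cells of extreme UMI totals kept and cell names held. Of the 40 genes 35 had a fold change above 0, with a median of 0.26. The test called 2 of the 40 genes higher and 0 lower, where 0.895% of all 11737 genes tested were called higher, and 26 genes had both cKO libraries above both control libraries, against 18.4% of all genes tested, and 1 had both below, against 28.1%. Srm was at 8.71, 8, 19.1 and 17.2 CPM (1.15, SE 0.17, adjusted p = 0.00427), without overlap. Nhp2 was at 43, 41.9, 62.1 and 58.6 CPM (0.55, SE 0.11, adjusted p = 0.0277). Both were also called in DPbla. Rrp12 at 0.882, 0.923, 2.03 and 2.16 CPM (1.24, SE 0.40, adjusted p = 0.152) and Polr1b at 2.1, 2.38, 3.42 and 4.46 CPM (0.86, SE 0.30, adjusted p = 0.195) did not overlap either but missed the threshold. Within the DPre clusters the counts were higher. The cluster led by Gm38405 and Xrra1 gave 6 of 40 (Srm, Fbl, Ddx21, Nhp2, Gnl3 and Nolc1, median 0.32, with 1.22% of all genes tested called higher there). That led by Insl5 and Slc7a11 gave 5 of 39 (Gar1, Srm, Ddx21, Nhp2 and Gnl3, median 0.27, 1.1%). The cluster of low UMI totals led by Gm44175 gave 0 of 21 tested (0.0817%, 5 unadjusted p-values under 0.05, edgeR only). Without control 2 the count in the whole stage was 6, without cKO 2 it was 1, and with a mitochondrial limit of 5% it was 0, Srm then having 0.80 with cell names held and 0.88 with cells clustered anew. Ribosomal protein genes again took more of the cKO UMIs, 19.3% and 18.2% against 16% and 15.8%, and the 8 markers of DPbla summed to 246 and 177 CPM in control and 324 and 291 CPM in cKO DPre cells. Other marker sums without overlap were those of DN (31.1 and 24.2 against 53.4 and 40.1 CPM), CD8SP (40.3 and 38.1 against 52.8 and 51.1 CPM), CD4SP (33.2 and 33.5 against 37.4 and 35.5 CPM), B cells (495.9 and 435.2 against 569.3 and 496.5 CPM), mononuclear phagocytes (321.4 and 303.5 against 322.6 and 357.2 CPM) and erythroid cells (20.2 and 16.7 against 27.3 and 42.1 CPM). Their part in the result was not tested.

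Whether the effect differed between DPbla and DPre was tested as an interaction. It called 0 of the 40 genes (edgeR, 12 unadjusted p-values under 0.05, no other tool run), where 0.435% of all genes tested were called in either direction. The median difference was 0.17, DPbla minus DPre, and 35 genes were above 0. The smallest adjusted p-values were those of Mybbp1a (0.53, SE 0.13, adjusted p = 0.0855) and Pno1 (0.72, SE 0.19, adjusted p = 0.11). Nhp2 and Srm were at 0.00 (SE 0.11) and 0.02 (SE 0.18). These values turned when cells of extreme UMI totals were kept with cell names held: the median was then -0.03 with 14 genes above 0, and Srm was called, with a smaller effect in DPbla than in DPre (-0.87, SE 0.15, adjusted p = 0.0321). Mybbp1a was then at -0.02 (SE 0.12) and Nhp2 at -0.28 (SE 0.09, adjusted p = 0.336). Summed over DPbla, DPre and DPsel (all DP), 14 of the 40 genes were called higher and 0 lower, where 3.3% of all genes tested were called higher, with a median of 0.33. Of these 14 genes 13 were among the 17 of DPbla, and the other was Ncl, at 531, 590, 668 and 736 CPM (0.37, SE 0.09, adjusted p = 0.0317). Blasts made up 11.9% and 10.8% of these cells in control and 17.1% and 15.2% in cKO, and 9 of the 22 proliferation genes of the study's list were called higher in all DP against 0 in DPbla (edgeR, 5 unadjusted p-values under 0.05). The part of this make-up in the 14 calls was not tested.

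In DN cells 34 of the 40 genes were above 0, with a median of 0.28, and the test called 2 higher and 0 lower, where 0.567% of all 8812 genes tested were called higher. Nolc1 was at 60.2, 79.2, 131 and 125 CPM (0.87, SE 0.17, adjusted p = 0.0187) and Ncl at 583, 710, 889 and 964 CPM (0.54, SE 0.11, adjusted p = 0.023). Odc1 at 36.1, 48.8, 62.8 and 75.8 CPM (0.71, SE 0.21, adjusted p = 0.17) and Polr1a, the largest subunit of RNA polymerase I, at 22.6, 22.1, 30.4 and 39.4 CPM (0.70, SE 0.26, adjusted p = 0.36) missed the threshold. In 22 genes both cKO libraries lay above both control libraries, against 17.5% of all genes tested, and in 3 both lay below, against 22.1%. The class is small, 72 and 110 control and 153 and 315 cKO cells, and the count was 1 without control 1 or without cKO 2. It was 0 with cells of extreme UMI totals kept, where the sum differed by 0.08 with cell names held and by -0.02 with cells clustered anew, in place of 0.22, and 0 at a clustering resolution of 1.5 or with the 40 genes among the clustering genes. The DPbla markers in this class summed to 361 and 335 CPM in control and 855 and 790 CPM in cKO cells, and 8 of the 18 tested proliferation genes of the study's list were called higher. Lower in both cKO libraries were the sums of the DN markers (2816 and 2613 against 2417 and 2347 CPM), the DPre markers (2253 and 1910 against 1815 and 1823 CPM), the CD4SP markers (46.7 and 71.9 against 36.5 and 45.8 CPM), the CD8SP markers (215.3 and 231.2 against 200.6 and 204 CPM) and the Myc family (709.3 and 632.9 against 599.9 and 608.7 CPM). Mitochondrial genes took 6.94% and 6.98% of control and 5.89% and 6.01% of cKO UMIs, and ribosomal protein genes 28.6% and 29.2% against 29.8% and 30.2%. Their part in the result was not tested.

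In DPsel, CD4SP and CD8SP no difference passed the test in the main fit. Some alternative fits gave calls in DPsel and CD4SP, listed with the alternatives below. In DPsel the sums were 5332, 5244, 5708 and 5049 CPM, in CD4SP 4343, 4236, 4259 and 3959 CPM, and in CD8SP 5260, 5733, 5539 and 5587 CPM, and the groups overlapped in all 3. The test called 0 of the 40 genes in DPsel (5 unadjusted p-values under 0.05), CD4SP (2) and CD8SP (3), by edgeR and by DESeq2, where 0.0934%, 0.193% and 0.448% of all genes tested were called in either direction. The medians were 0.10, -0.02 and 0.00. Both cKO libraries were above both control libraries for 14, 8 and 11 genes, against 17.9%, 22.4% and 20.4% of all genes tested, and below both for 3, 4 and 8 genes, against 20.7%, 16.1% and 17.2%. The largest changes without overlap in DPsel were Ddx21 at 117, 126, 165 and 153 CPM (0.40, SE 0.11, adjusted p = 0.224), Rrp1b at 19.1, 23.7, 30.1 and 26.6 CPM (0.40, SE 0.17) and Mybbp1a at 52.4, 53, 76.4 and 58.8 CPM (0.36, SE 0.15). In CD4SP they were Polr1b at 9.08, 9.96, 7.34 and 7.42 CPM (-0.40, SE 0.33, but, with cells clustered anew, 0.23 at a resolution of 1.5 and 0.16 without doublet removal), Eif4a1 at 582, 573, 494 and 421 CPM (-0.37, SE 0.10, adjusted p = 0.243) and Ddx21 at 85.6, 99.6, 122 and 120 CPM (0.36, SE 0.13, adjusted p = 0.473). In CD8SP they were Polr1b at 7.08, 7.61, 10.4 and 11.6 CPM (0.55, SE 0.37), Nob1 at 41.4, 40.6, 31.2 and 31.7 CPM (-0.40, SE 0.19) and Nop2 at 18, 14.7, 10.8 and 14.6 CPM (-0.39, SE 0.30). Whether the effect in these stages differs from that in DPbla was not tested.

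A wider list of 98 other ribosome biogenesis genes gave the surroundings of the 40. In DPbla 79 of the 98 had a fold change above 0, with a median of 0.16, and 5 were called higher and 0 lower, to be read against the same 1.82%. These were Mrto4 at 45.8, 52.6, 77.6 and 76.9 CPM (0.69, SE 0.12, adjusted p = 0.00276), Noc2l at 35, 43.1, 58.2 and 59.5 CPM (0.62, SE 0.13, adjusted p = 0.0087), Rrp15 at 25.3, 26.4, 40.1 and 36.4 CPM (0.60, SE 0.14, adjusted p = 0.0165), Lyar at 83.6, 104, 136 and 126 CPM (0.52, SE 0.12, adjusted p = 0.0194) and Mdn1 at 10.1, 13.1, 17.3 and 21.7 CPM (0.78, SE 0.19, adjusted p = 0.0272). Mrto4, Noc2l, Rrp15 and the ATPase Mdn1 act in large subunit assembly. With cells of extreme UMI totals kept and cell names held, Mrto4, Noc2l and Rrp15 lost their calls, at 0.27, 0.29 and 0.29. With equal cluster shares Noc2l (0.44, adjusted p = 0.11, edgeR) and Rrp15 (0.52, adjusted p = 0.0809) lost theirs and Mrto4 kept its call (0.58, adjusted p = 0.0202). The alternatives were not looked at for Lyar and Mdn1 in DPbla. Of the 98 genes 1 was called in DPre, close to the 0.895% of all genes called higher there (Mdn1 at 13, 9.08, 17.7 and 21.1 CPM, 0.88, SE 0.18, adjusted p = 0.0332), 1 in CD8SP, where 0.448% of all genes were called in either direction (Tex10 at 20.7, 22.3, 41.6 and 46.2 CPM, SE 0.21 on the log2 scale, adjusted p = 0.0207) and 0 in DN, DPsel and CD4SP (7, 1 and 7 unadjusted p-values under 0.05). Of 26 other growth genes 0 were called in the 6 stages, with medians of -0.04 to 0.03. The Mdn1 call in DPre was lost without control 2 (0.63), cKO 1 (0.98) or cKO 2 (0.74) and at a mitochondrial limit of 5% (0.70 with cell names held), and the Tex10 call was lost without control 1 (0.94) or cKO 2 (0.95), by DESeq2 and, with cell names held, with cells of extreme UMI totals kept (0.82), at a mitochondrial limit of 5% (0.96) and without doublet removal (0.90). The 98 genes thus had a smaller median than the 40 in DPbla, and this difference was not tested.

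The Myc family holds Myc and Mycn, transcription factors that drive growth genes, and their partners and antagonists. In DPbla 10 of its 11 genes were tested, 3 were above 0 and 7 below, and 1 was called higher and 1 lower, where 1.82% and 1.14% of all genes tested were. There Myc was at 18.2, 13.4, 43.3 and 44.9 CPM (1.55, SE 0.15, adjusted p = 2.76e-06) and rose, while Mycn was at 6.12, 6.55, 1.2 and 2.31 CPM (-1.75, SE 0.35, adjusted p = 0.00623) and fell. With cells of extreme UMI totals kept and cell names held Myc in DPbla was at 0.26 (SE 0.15, adjusted p = 0.534). Mycn missed the threshold without cKO 1 (-1.41, adjusted p = 0.084) and at a mitochondrial limit of 5% with cell names held (-1.59, adjusted p = 0.172). In DPre Myc was at 10.5, 9.62, 37.9 and 20.9 CPM (1.57, SE 0.24, adjusted p = 0.00506), and a mitochondrial limit of 5% ended the call with cells clustered anew (1.45, adjusted p = 0.063) but not with cell names held (1.46, adjusted p = 0.000683). In DN it was at 206, 128, 146 and 134 CPM and in CD8SP at 62.6, 55.3, 58.5 and 48.2 CPM, with groups that overlapped (-0.19, SE 0.17 and -0.15, SE 0.17). In DN, Mxd3, which encodes a Max partner that opposes Myc, was called higher on few molecules, 2, 2, 19 and 38 UMIs (3.01, 1.84, 12.8 and 14.3 CPM, adjusted p = 0.0421), a call lost without control 2, without cKO 1 or without cKO 2 (2.21 to 2.62 on the log2 scale) and, with cell names held, with cells of extreme UMI totals kept (1.45) or without doublet removal (2.61). Myc was thus called higher in the 2 stages in which Srm was. The part of Myc in the levels of the 40 genes was not tested.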

How the data were processed

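Thymocytes of 2 control and 2 cKO mice were profiled by droplet 3′ RNA sequencing. The deposited files hold UMI counts per gene and cell, which the authors made with cellranger 6.1.1 on mm10 (GRCm38). The counts were not normalised before deposit.

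The following filters are those of the study: cells under 200 genes, the top and bottom 2.5% of UMI totals and cells over 10% mitochondrial UMIs were left out. The limits on UMI totals were set here for each library, which the study does not state. Doublets were removed in another way than in the study, which used DoubletFinder: here the 5% of cells with the highest Scrublet score were removed, 278 to 543 per library. Cells were clustered with scanpy 1.11.5 (3000 variable genes without the 40 genes, 30 components, resolution 1). Clusters were named from marker lists, and 7 of 25 stayed unnamed. Counts were summed per library and stage and fitted with edgeR 4.0.16 in R 4.3.3 (TMM, filterByExpr, quasi-likelihood test, genotype as the only term, Benjamini-Hochberg threshold 0.05). The effect in DPbla minus that in DPre was fitted with the library as a term. The edgeR step was also tested on simulated data. A stage needed 30 cells in every library.

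The p-values measure the spread between libraries of 2 mice per group. Counting intervals are exact binomial (Clopper-Pearson) 95% intervals and cover counting error only. Alternatives were DESeq2 1.42.0, other filters (with cells clustered anew and with cell names held), scalings and clusterings, each library left out, and the replicate number as a block. The study describes pairs of control and cKO littermates, and the share of cells over the mitochondrial limit followed the replicate number, but no source says that a number marks a pair. The main fit therefore has no block.

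Values in every library are given for genes called in any class, for the 3 with the largest fold change without overlap in each stage, for the largest gene of a role and for up to 5 called genes per stage of the other lists. Cluster values and Nop56, Odc1 and Eif5a were named beside them after their values were seen. The genes and lists were chosen with earlier results of these data known.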

Additional observations from a re-analysis of the deposited data

Results flagged for a closer look

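The effect of Tox4 loss on Mxd3, which encodes a Max partner that opposes Myc, differed between stages. The log2 effect in DPbla minus that in DPre was -0.87 (SE 0.17, adjusted p = 0.0221, edgeR interaction), and -0.92 (SE 0.16, adjusted p = 0.00354) with cells of extreme UMI totals kept and clustered anew. The difference missed the threshold with these cells added and cell names held (-0.88, adjusted p = 0.0581), without control 2 (-0.60, adjusted p = 0.212), without cKO 2 (-0.82, adjusted p = 0.0517) and at a mitochondrial limit of 5% (-1.15, adjusted p = 0.455 with cell names held, and -1.24, adjusted p = 0.102 with cells clustered anew). Mxd3 was at 159, 150, 146 and 120 CPM in DPbla (control 1, control 2, cKO 1, cKO 2) and at 7.94, 5.39, 10.8 and 9.56 CPM in DPre. Within a stage neither effect passed the test (-0.17, adjusted p = 0.535, and 0.67, adjusted p = 0.164). The proliferation genes of the study's list moved in the same direction: of 22 genes 17 were below 0 in the same contrast, 5 were called lower and 0 higher, and the median was -0.25. The 8 DPbla markers summed to 246 and 177 CPM in control and 324 and 291 CPM in cKO DPre cells. Their part in the Mxd3 difference was not tested. Groups of 2 libraries were too small to look for outlying samples.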

How the results depend on the processing

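The direction of the median of the 40 genes in DPbla held under every alternative run, at 0.25 to 0.58, but the number of genes called did not. The share of all genes called was not counted under the alternatives. The counts of calls below thus cannot tell a change in the 40 genes from a change in the whole fit. Under a resolution of 1.5, a mitochondrial limit of 5%, extreme UMI totals kept, no doublet removal and the 40 genes among the variable genes, cells were clustered and named anew. Mitosis clusters of 599, 298, 682 and 849 cells were then named DPre under the first 4, and low-UMI clusters of 845 and 1131 droplets were named DPbla at the resolution of 1.5 and at the 5% limit. The limit, the extreme cells and the doublets were therefore also run with cell names held, as given in the report. In DPbla the 17 calls became 6 at a mitochondrial limit of 5% with names held and 1 with new clusters, 1 with extreme UMI totals kept in either way, 10 with equal cluster shares and 5 with extremes kept and equal UMI-band shares. Without 1 library they were 6 to 19. In DN the 2 calls became 1 by DESeq2 (Nolc1 had no adjusted p), and 0 at a clustering resolution of 1.5, with extremes kept in either way or with the 40 genes among the variable genes, and without 1 library they were 1 to 3. In DPre the 2 calls became 8 without a filter on low counts, 4 by DESeq2, 5 at resolution 1.5, 0 at a mitochondrial limit of 5% in either way, 5 without doublet removal and new clusters (2 with names held) and 4 with the 40 genes among the variable genes, and 1 to 6 without 1 library. In DPsel there was 1 call without the filter, and it was lower in cKO. In all DP the 14 calls became 8 at a mitochondrial limit of 5% with new clusters, 8 with extremes kept and new clusters and 6 with names held, and 6 to 15 without 1 library. The interaction gave 3 calls without the filter, 1 with the low-UMI cluster counted as DPbla, 1 at resolution 1.5 and 0 to 1 without 1 library, each higher in DPbla. With extremes kept it gave 1 call in the opposite direction (Srm, -0.80, and -0.87 with names held), and its median turned from 0.17 to -0.05 (-0.03), with Mybbp1a at -0.02 with names held. The differences of Srm and Nhp2 between the stages, near 0 in the report, changed sign easily. That of Srm was -0.17 with the low-UMI cluster counted as DPbla, -0.07 at resolution 1.5, -0.30 at a mitochondrial limit of 5%, -0.14 without doublet removal (-0.04 with names held) and -0.04 to 0.08 without 1 library. That of Nhp2 was -0.01 with DESeq2 size factors, -0.03 with the low-UMI cluster, -0.02 at resolution 1.5, -0.27 at a mitochondrial limit of 5% (-0.09 with names held), -0.30 with extremes kept (-0.28) and -0.08 to 0.09 without 1 library. The causes were not tested.

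With the replicate number as a block the calls rose to 28 in DPbla, 23 in all DP, 15 in DPre and 5 in DN. All of these were higher in cKO. DPsel had 2 calls (1 higher, 1 lower) and CD4SP 1 (lower). The share of all genes called was not counted with the block, so the rise cannot be told from a change in the whole fit. Adjusted p-values (edgeR) also fell for genes outside the list, such as Mrto4 in DPbla (0.00276 to 1.62e-08) and Tex10 in CD8SP (0.0207 to 0.0036). The deviations of same-numbered libraries correlated at 0.105 to 0.256 across genes, with 2 pairs. The block was not run for the interaction, nor was DESeq2.

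The log2 ratio of the sum to DPre was, in DN, 0.97 with extremes kept (1.03 with names held), 1.09 as a median over genes, 2.60 per cell and 0.80 without Npm1, Ncl, Eif4a1 and Eif5a. In DPbla it was 0.69 at a mitochondrial limit of 5% (0.55 with names held), 1.22 with extremes kept (1.20, above DN in both), 2.25 per cell and 0.37 without the 4 genes. As a median and per cell it was 0.79 and 1.04 in DPsel, 0.42 and 1.09 in CD4SP, and 0.85 and 2.14 in CD8SP. The log2 ratio of cKO to control was, in DN, -0.02 with extremes kept (0.08 with names held) and 0.29 without the 4 genes. In DPbla it was 0.23 at a mitochondrial limit of 5% (0.30 with names held), 0.12 with extremes kept in either way, 0.24 with equal cluster shares, 0.18 with equal UMI-band shares and 0.40 without the 4 genes. In DPre it was 0.09 at a mitochondrial limit of 5% (0.11 with names held) and 0.21 without the 4 genes, and in CD4SP 0.00 without doublet removal and 0.00 without the 4 genes. Polr1b in CD4SP turned to 0.23 at resolution 1.5 and 0.16 without doublet removal. Held cell names, equal UMI-band shares, the low-UMI cluster counted as DPbla and the cKO ratio without 4 genes were chosen after the data were seen. At a mitochondrial limit of 5% DN, and CD8SP with new clusters, had under 30 cells in a library and were not fitted.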

Other observations

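The sum over the 40 genes was 3351, 3877, 3922 and 4035 CPM in γδ T-like cells (15 to 28 cells per library), 4937, 4389, 4343 and 4456 CPM in B-like cells (32 to 47 cells) and 673.5, 235.7, 1303 and 608.5 CPM in erythroid-like cells (9 to 48 cells), in the order control 1, control 2, cKO 1, cKO 2. The erythroid-like values were the lowest of the named classes and rest on 15 to 213 UMIs.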
